A study of Mus musculus with 18 samples.

Results

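Macrophages express genes for lipid-handling and matrix-remodelling proteins, of which some are secreted and others act inside cells or in membranes. In RNA-seq data of mouse cells, 10 genes of that kind were followed here: *Apoe*, *Lpl*, *Fabp4*, *Fabp5*, *Spp1*, *Lgals3*, *Nov*, *Mmp12*, *Gpnmb* and *Acp5*. They were selected on their values in these data, mainly their high levels in ES cell derived macrophages (MAC), so that their increase in MAC is a description and carries no test. By symbol, 9 of the 10 were found among the 20310 genes of the table of differentiation stages and all 10 among the 20495 genes of the table of fibroblasts. *Gpnmb* was therefore followed in the fibroblasts, and was not analysed here in the stages.

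The study followed blood formation from ES cells and the reprogramming of fibroblasts to blood. A 129 mouse ES cell line with a GFP reporter in *Brachyury* (Bry), kept on embryonic fibroblasts, was differentiated and sorted as ESC, mesoderm (MES, Bry.GFP+ FLK1-), hemangioblast (HB, Bry.GFP+ FLK1+), hematopoietic progenitors (HP, CD41+) and MAC (CD11b+), with 2 replicates sequenced for each of the 5 stages. Mouse embryonic fibroblasts (MEFs) of strain 129, negative in a sort for CD45, CD41, CD31 and CD117, were left untreated (uFIB) or given *Scl* (*Tal1*) and *Lmo2* (SL), *Scl*, *Fli1*, *Gata2* and *Lmo2* (SFGL) or *Fli1*, *Gata2* and *Lmo2* (FGL), and were measured at day 12 and day 21. Lentiviruses carried FLI1, GATA2 and LMO2. In transgenic MEFs, doxycycline switched on SCL from an iTal1-2A-GFP transgene with rtTA and TRE-TAL1 cassettes. The study also used wild type MEFs, and describes expression vectors for all of these factors. The labels describe wild type and transgenic MEFs without saying which library came from which. The methods of the study placed the MEFs in haematopoietic medium with M-CSF and GM-CSF among its cytokines. HE, the hemogenic endothelium, was not analysed here.

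Each value is an FPKM, the fragments assigned to a gene per kilobase of transcript, scaled to the number of aligned reads, so that levels can be compared between genes of one sample. For the stages the authors combined both replicates into 1 value, and for the MEFs there is 1 library for each condition and day. No replicate error is therefore available for any value, no difference was tested, and the order of levels cannot be set against a spread. A gene is called higher or lower below when it differed at least 2-fold on log2(FPKM + 1) and reached 1 FPKM in at least 1 of the samples compared. Genes that reached 1 FPKM in a comparison are the genes tested, and the share of them that met the same rule is given where a comparison is first counted and applies to its later counts. Both tables were normalized separately, and levels were compared within a table only.

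Lipoproteins and fatty acids reach tissue cells through lipoprotein lipase and are carried inside cells by small fatty acid binding proteins, while apolipoprotein E carries lipid between cells, plasma and liver. Macrophages and adipocytes share much of this machinery, which the fatty acid sensing nuclear receptor PPARG helps to control in both. Osteopontin, galectin 3, NOV and macrophage elastase are released around cells, where they bind integrins or sugars or cut matrix proteins, and tartrate-resistant acid phosphatase is best known from osteoclasts, the bone-resorbing relatives of macrophages.

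Starts of members with a RefSeq promoter window are shown because 2 of these genes, *Spp1* and *Acp5*, were measured from more than 1 start in the stages and because *Spp1*, *Lgals3* and *Mmp12* went from low values in HB to high values in MAC, whereas *Apoe* was high throughout. RefSeq sequences (GRCm38.p6) matched 6 of the 10 members, with 12 windows, and no window is shown for *Nov*, *Fabp4*, *Fabp5* or *Lpl*. For *Spp1*, *Mmp12*, *Acp5*, *Lgals3* and *Apoe*, 1 window each is printed. The printed *Acp5* window is the only *Acp5* window with a match. Which of the starts measured in the stages a window belongs to is not given here. Each line below gives the 120 bases before a start, 5′ to 3′ on the strand of the gene, with matches to a searched motif in capitals. *Spp1* is chr5:104434991-104435110 on the plus strand, *Mmp12* chr9:7347254-7347373 on the plus strand, *Acp5* chr9:22130599-22130718 on the minus strand, *Lgals3* chr14:47373740-47373859 on the plus strand and *Apoe* chr7:19699189-19699308 on the minus strand. Of the genes without a window, *Nov* lies at chr15:54745928-54753761 and *Lpl* at chr8:68880555-68906932, and the pair *Fabp4* and *Fabp5* lies on chromosome 3; all are protein-coding genes.
Spp1: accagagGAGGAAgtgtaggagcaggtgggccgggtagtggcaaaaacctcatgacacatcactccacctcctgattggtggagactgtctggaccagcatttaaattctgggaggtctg
Mmp12: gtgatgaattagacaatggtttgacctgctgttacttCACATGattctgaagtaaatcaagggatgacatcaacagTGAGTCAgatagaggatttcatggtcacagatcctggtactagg
Acp5: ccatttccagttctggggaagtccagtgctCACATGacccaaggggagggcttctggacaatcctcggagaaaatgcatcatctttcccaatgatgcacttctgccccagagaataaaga
Lgals3: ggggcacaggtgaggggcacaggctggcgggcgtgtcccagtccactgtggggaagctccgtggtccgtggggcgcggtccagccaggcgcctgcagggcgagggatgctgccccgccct
Apoe: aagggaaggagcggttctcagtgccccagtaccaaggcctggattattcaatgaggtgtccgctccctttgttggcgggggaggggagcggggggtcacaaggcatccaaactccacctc

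The motifs were searched from position -250 to -1 of each window, where -1 is the base before the start, on both strands unless stated. The ETS core GAGGAA was found in 4 of the 12 windows (*Spp1* at -113 to -108, 2 of the 3 *Apoe* windows and the *Mmp12* window that starts further upstream) and in 23.3% of all 32851 windows. The AP-1 motif TGANTCA was found once, at -44 to -38 of the *Mmp12* window shown, and in 6.75% of all windows. The E-box CATGTG was found in that *Mmp12* window and in the *Acp5* window shown, against 12.3% of all windows, and the C/EBP motif TTGCNNAA in 1 window each of *Spp1* and *Mmp12*, against 9.56%. The E-box CACGTG (6.02% of all windows) and TATAAA on the gene strand between -45 and -15 (2.14%) were found in none of the 12. No match overlapped another, and the windows of *Lgals3* and *Gpnmb* held none of these letters. Matches are descriptions of the sequence, and no binding was measured here.

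The samples were first compared with their labels. All 13 macrophage markers in the stage table were higher in MAC than in HP, with a summed level of 3961 FPKM in MAC against 1.93 to 23.2 in the other stages and *Csf1r*, the M-CSF receptor, at 234. In MAC the fibroblast markers summed to 4.02 FPKM and the adipocyte markers to 60.1, of which *Cebpa*, a factor that myeloid cells also express, gave 59.2, while adiponectin (*Adipoq*) was at 0.0225. The uFIB and FGL libraries held 6348 to 8232 FPKM of fibroblast markers and also 875 to 1208 FPKM of adipocyte markers, among them *Adipoq* at 173 to 348. In the libraries labelled FGL, *Tal1*, which the label does not name as given, was at 7.04 at day 12, against 0.0414 in uFIB. *Fli1*, which the label names as given, was at 3.35 at day 21, near the 3.02 of uFIB. The source of the *Tal1* RNA was not tested. FGL day 12 also held 2914 FPKM of neutrophil and eosinophil markers, against 12.3 in uFIB day 12 and FGL day 21 each and 218 in uFIB day 21. In such bulk samples, fewer cells of a type and less RNA per cell cannot be told apart.

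MAC stood apart from every earlier stage analysed in all 9 members measured there. Together they gave 5.99% of the summed FPKM of all genes in MAC and 0.0769% to 0.107% in ESC, MES, HB and HP. *Spp1* was the highest of all genes in MAC, *Lgals3* was the 6th and *Nov* the 8th, and 6 of the 9 members were in the top 1% (*Spp1*, *Lgals3*, *Nov*, *Lpl*, *Apoe* and *Fabp5*). *Mmp12*, *Acp5* and *Fabp4* lay lower, within the top 2.30%, 2.56% and 3.95% of genes. All 9 were at least 2-fold higher in MAC than in HP, where 33.4% of the 10824 genes tested were higher and 13.9% lower, and this is the difference that chose them. The median difference of the members was 6.86 on log2(FPKM + 1) against 0.46 for all genes. Scaling to the same upper quartile turned the median of all genes to -0.17 and left the members between 3.10 and 11.07.

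**Figure D1:**
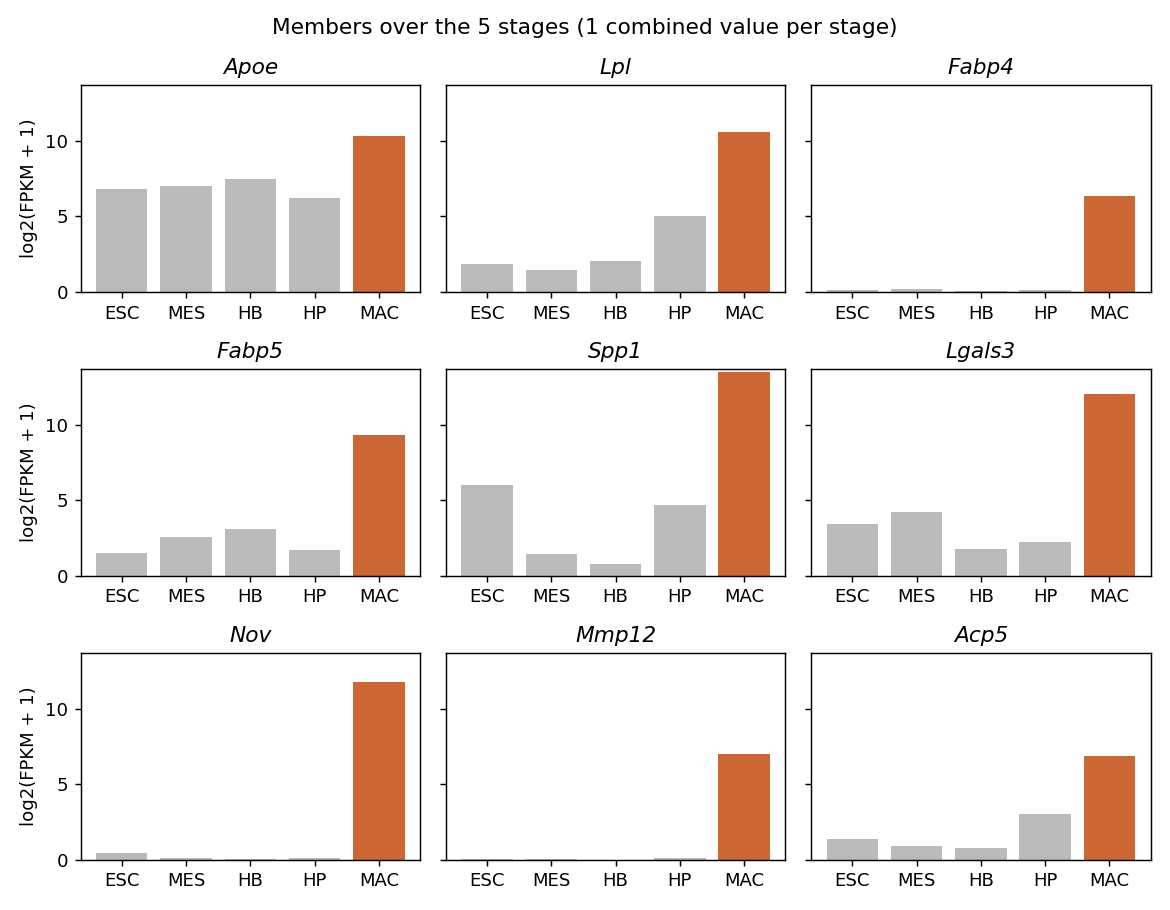
Level of 9 members in ESC, MES, HB, HP and MAC, as log2(FPKM + 1) on the vertical axis. Each bar is 1 value that combines 2 replicates, with no error available; MAC (orange) is the highest bar of every panel, and *Apoe* is the member with at least 72.2 FPKM at every stage.

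*Apoe*, the lipid carrier, was the exception among the lipid genes in being high from the start. The ESC held 114 FPKM, MES 131, HB 174, HP 72.2 and MAC 1292. It was thus in the top 1% of genes in ESC, MES and HB, fell 2.41-fold from HB to HP and was 17.9-fold higher in MAC than in HP. *Lpl*, lipoprotein lipase, started at 2.67 FPKM in ESC, with 1.73 and 3.06 in MES and HB, before 32.1 in HP and 1548 in MAC. Its level was thus 10.5-fold higher in HP than in HB and 48.3-fold higher in MAC than in HP. HE lies between HB and HP and was not analysed, so that the number of steps is unknown. *Apoe* exceeded *Lpl* 42.5-fold in ESC and 56.9-fold in HB but only 2.25-fold in HP, and in MAC *Lpl* was 1.20-fold the level of *Apoe*.

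The fatty acid chaperones differed in when they were first measured. *Fabp4* stayed at 0.0619 to 0.129 FPKM in ESC, MES, HB and HP and reached 80.8 in MAC. *Fabp5* was present from the start (ESC 1.83 FPKM, MES 5.05, HB 7.66), dipped to 2.22 in HP and reached 628 in MAC. *Fabp5* was thus the more abundant of the pair at every stage, and in MAC it was 7.78-fold above *Fabp4*. Both genes lie on chromosome 3, *Fabp5* at chr3:10012585-10016610 and *Fabp4* at chr3:10204343-10208576, 187 kb apart by the GENCODE M21 annotation. The fatty acid binding protein genes *Pmp2* and *Fabp9*, which lie between them, were at 0.0114 and 0.0624 FPKM in MAC and at 0 in the other stages. Of the other family members, the heart-type *Fabp3* was at 1.53 FPKM in HP and 10.4 in MAC, the brain-type *Fabp7* was listed at 0 in HP and measured 4.41 in MAC, and *Fabp2* was listed at 0 in all 5 stages.

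*Spp1* encodes osteopontin, a secreted integrin ligand, and was high at both ends of the series of stages. ESC held 63.0 FPKM, MES 1.73, HB 0.718, HP 25.1 and MAC 11303. ESC and HP were thus both well above the stages between them, and *Spp1* was lower in MES than in ESC by 4.55 on log2(FPKM + 1). The ESC were kept on MEFs, and their fibroblast markers summed to 7.87 FPKM. In MES the same markers summed to 14.8 FPKM, of which *Pdgfra* gave 6.30. Of 6 fibroblast markers tested, 3 were higher in MES than in ESC (*Col1a1*, *Fbn1* and *Pdgfra*). Another 2, *Postn* and *Thy1*, were lower in MES, as *Spp1* was. Of all genes tested, 14.2% were higher or lower in MES. The part of those MEFs in the ESC value of *Spp1* was not tested. *Spp1* was measured from 2 starts, the first at 56.3 FPKM in ESC, 23.6 in HP and 10852 in MAC. The second was at 6.69 in ESC, listed at 0 in MES and HB, 1.498 in HP and 451 in MAC, so that the first start carried most of the level wherever *Spp1* was high. The 4 other genes of its family, *Ibsp*, *Dmp1*, *Dspp* and *Mepe*, reached at most 0.0207 FPKM in any stage.

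*Lgals3*, which encodes the sugar-binding galectin 3, was measurable throughout. ESC held 9.89 FPKM and MES 18.1, HB and HP held 2.47 and 3.78, and MAC held 4261.5, so that *Lgals3* was lowest in HB. *Nov*, also named *Ccn3*, encodes a matricellular protein and was close to unmeasured before MAC, with 0.364 FPKM in ESC and 0.0834, 0.0247 and 0.0846 in MES, HB and HP. In MAC it reached 3506 FPKM, a difference of 11.66 on log2(FPKM + 1) from HP and the largest among the 9 members. *Mmp12*, macrophage elastase, was listed at 0 in HB, did not exceed the 0.0891 FPKM of HP before MAC (0.0398 in ESC, 0.0292 in MES) and reached 125 in MAC. *Nov* and *Mmp12*, with *Fabp4*, were therefore the members that stayed below 1 FPKM in all analysed stages before MAC.

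*Acp5*, tartrate-resistant acid phosphatase, was near 1 FPKM in ESC (1.61), MES (0.846) and HB (0.712), and measured 7.25 in HP and 115 in MAC. Its 3 starts did not move together. In HP most of the level, 5.50 FPKM, was assigned to a start that was listed at 0 in the 4 other stages, whereas in MAC the other starts carried 75.9 and 39.1 FPKM. The total for the gene was 10.2-fold higher in HP than in HB and 15.9-fold higher in MAC than in HP. Assignment to starts within 1 gene rests on the reads that tell them apart, and the number of those reads is unknown.

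Between the earlier stages analysed, most calls came from HB to HP, an interval that spans HE, which was not analysed. From ESC to MES, 2 of the 6 members tested were called (*Fabp5* higher, *Spp1* lower), beside 14.2% of the 10605 genes tested. From MES to HB, 1 of 5 was called (*Lgals3* lower), beside 5.83% of 10210 genes. From HB to HP, *Spp1*, *Lpl* and *Acp5* were higher, 3 of the 6 tested beside 8.88% of 10507 genes, and *Apoe* and *Fabp5* were lower, 2 of 6 beside 8.79%. Some macrophage markers were also measured in HP, where the list summed to 23.2 FPKM against 1.93 in HB. In HP, 5 of the 13 reached 1 FPKM, and *Cd14* was the highest at 10.3. *C1qa* was listed at 0 in HP. Whether HP held macrophages or other myeloid cells, and their part in its values of *Spp1*, *Lpl* and *Acp5*, was not tested.

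Genes of the same pathways were higher in MAC as well. Of the lipid uptake, storage and release genes, 20 of 23 in the table passed the limit of 1 FPKM and all 20 were at least 2-fold higher in MAC than in HP, beside the 33.4% of tested genes given above. Their median difference was 3.38 on log2(FPKM + 1). *Msr1*, a scavenger receptor, went from 0.316 to 589 FPKM, *Mgll*, which releases fatty acids from monoglycerides, from 0.153 to 445, and the cholesterol exporter *Abcg1* from 3.15 to 239. Of the lipid-sensing nuclear receptors and partners, 4 of 7 tested were higher and none lower. *Pparg* measured 0.163 FPKM in HP and 60.9 in MAC, the oxysterol receptor *Nr1h3* 0.309 and 32.9, and their partner *Rxra* 2.73 and 18.1. All 4 MiT/TFE factors, regulators of lysosomal and osteoclast genes, were higher in MAC, with *Tfec* at 5.49 FPKM in HP and 86.8 in MAC and *Mitf* at 0.870 and 30.3.

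The families of the secreted members were less uniform. In the CCN family *Nov* was the single gene that was higher in MAC. *Ctgf* fell from 8.08 to 0.0913 FPKM, *Wisp1* from 6.57 to 0.0891 and *Cyr61* from 14.5 to 2.28, and *Wisp2* and *Wisp3* did not reach 1 FPKM in HP or MAC. Among the metalloproteinases and their inhibitors, 7 of 11 tested were higher, a count that includes the selected member *Mmp12*, and 2 were lower. *Mmp19* went from 1.53 to 189 FPKM and thus lay above *Mmp12* in MAC, and the inhibitor *Timp2* from 1.61 to 123. The gelatinase *Mmp2* fell from 5.94 to 0.513 FPKM and the inhibitor *Timp3* from 12.6 to 0.231.

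Of the galectins, 5 of 6 tested were higher in MAC, a count that includes the selected member *Lgals3*. *Lgals1* measured 159 FPKM in HP and 2134 in MAC, and the galectin 3 binding protein gene *Lgals3bp* 3.64 and 87.1, both with smaller differences than *Lgals3*. Among receptors for osteopontin, 3 of 7 tested were higher (*Itgb5*, *Cd44* and *Itgb1*), beside 33.4% of all genes tested. The 1 that was lower, beside 13.9% of all genes tested, was *Itgb3*, from 96.7 to 35.5 FPKM. Of the osteoclast genes, 8 of 11 tested were higher and *Itgb3* was again the one lower. *Atp6v0d2*, a subunit of the proton pump, was listed at 0 in the 4 earlier stages and measured 590 FPKM in MAC, *Tcirg1*, another subunit, went from 7.61 to 284, and the RANK receptor gene *Tnfrsf11a* from 0.202 to 25.6. *Acp5* is a member of that list.

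In the MEFs the same 10 genes divided into groups with different levels and directions. In uFIB they gave 1.53% of all summed FPKM at day 12 and 1.90% at day 21, and in the libraries labelled FGL 1.32% and 1.74%. In SL and SFGL their share was 0.252% to 0.473%. *Fabp4* was the highest member in every MEF library except SFGL day 21, where *Spp1* was higher, and it was the 7th highest of all genes in uFIB day 12 and the 2nd in uFIB day 21. Of the 9 members that reached 1 FPKM, 4 were lower in all 4 SL and SFGL libraries than in uFIB of the same day (*Apoe*, *Lpl*, *Fabp4* and *Nov*), beside 8.14% of the 12726 genes tested. *Lgals3* was the 1 member that was higher in all 4, beside 8.9%. SL and SFGL of a day share their uFIB library, so that these comparisons are not independent.

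**Figure D2:**
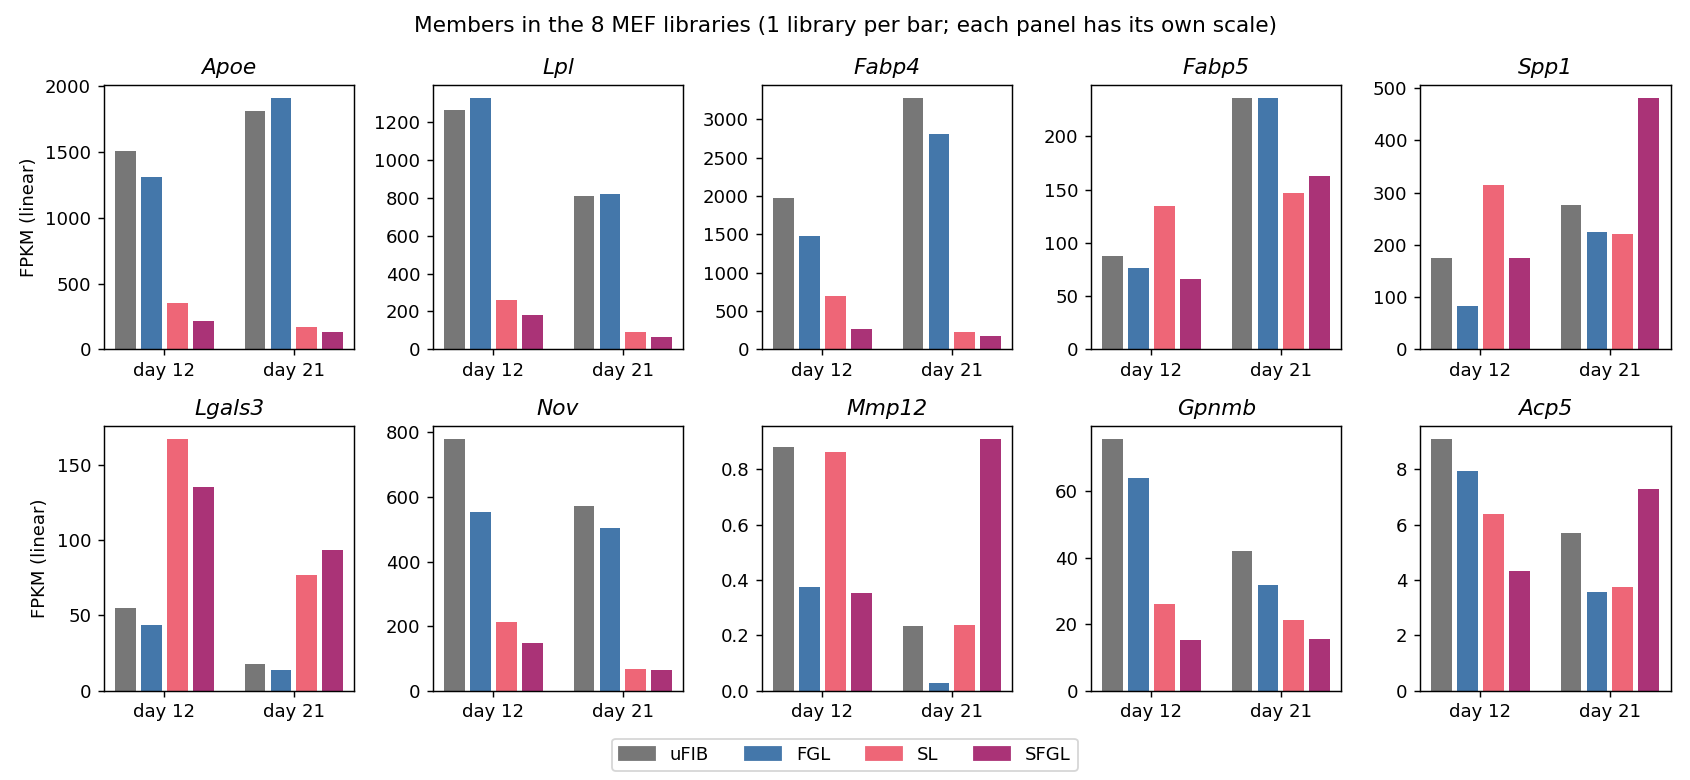
FPKM of the 10 members in the 8 MEF libraries on linear axes that start at 0 and differ between panels, with 1 library per bar and no error available. *Apoe*, *Lpl*, *Fabp4*, *Nov* and *Gpnmb* have their lowest bars in SL and SFGL (red and purple), *Lgals3* has its highest there, and no panel of *Mmp12* or *Acp5* exceeds 0.910 or 9.11 FPKM.

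*Apoe* measured 1508 FPKM in uFIB, 1311 in FGL, 356 in SL and 217 in SFGL on day 12, and 1812, 1913, 169 and 129 in the same order at day 21. *Lpl* measured 1263, 1329, 258 and 179 FPKM at day 12 and 811, 819, 93.8 and 63.9 at day 21. The levels of uFIB and FGL were close to each other for both genes on both days, and every SL and SFGL value lay below every uFIB and FGL value. In SL, *Apoe* was 4.24-fold lower at day 12 and 10.7-fold lower at day 21, and in SFGL 6.94-fold and 14.0-fold lower. For *Lpl* these differences were 4.90-fold and 8.65-fold in SL and 7.04-fold and 12.7-fold in SFGL. *Apoe* and *Lpl* were also the members that were at least 4-fold lower in all 4 libraries. The ratio of *Apoe* to *Lpl* stayed between 0.986 and 2.34 in all 8 libraries.

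*Fabp4* measured 1976 FPKM in uFIB, 1480.1 in FGL, 701 in SL and 261 in SFGL on day 12, and 3283, 2814, 229 and 169 at day 21. It was 2.82-fold lower in SL at day 12 and 19.4-fold lower in SFGL at day 21, the widest range of the 4 lower members. Between days it was 1.66-fold higher in uFIB and 3.06-fold lower in SL. *Fabp5* measured 87.8, 76.0, 134 and 66.3 FPKM at day 12 and 236, 236, 147 and 163 at day 21. *Fabp5* thus showed no common direction in SL and SFGL, between 1.53-fold higher and 1.61-fold lower than uFIB. In contrast to MAC, *Fabp4* exceeded *Fabp5* in all MEF libraries, 22.5-fold in uFIB day 12 and 13.9-fold in uFIB day 21, and this excess was 1.04-fold in SFGL day 21. *Pmp2* and *Fabp9* did not exceed 0.112 FPKM in any MEF library.

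**Figure D3:**
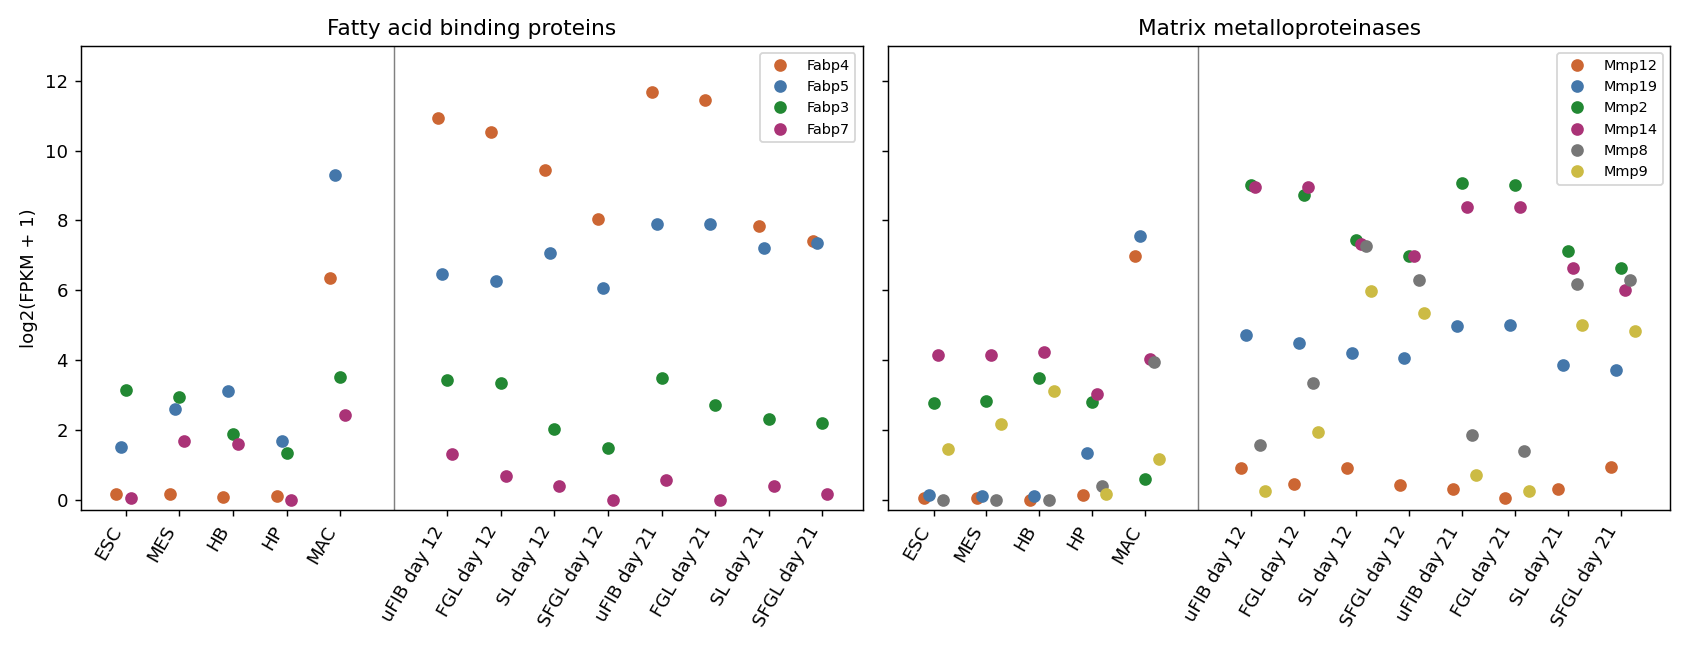
Levels of fatty acid binding protein genes (left) and metalloproteinase genes (right) as log2(FPKM + 1) in the 5 stages and, right of the vertical line, the 8 MEF libraries; each point is 1 value, with points of a sample set side by side. *Fabp5* lies above *Fabp4* in MAC and *Fabp4* above *Fabp5* in all MEF libraries, and *Mmp12* is at 125 FPKM in MAC and below 1 FPKM in all MEF libraries.

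*Nov* measured 780 FPKM in uFIB, 552 in FGL, 212 in SL and 147 in SFGL on day 12, and 571, 504, 68.3 and 63.6 at day 21. At day 12 it was 3.68-fold lower in SL and 5.32-fold lower in SFGL, and at day 21 8.37-fold and 8.99-fold lower. In uFIB it was the highest CCN gene on both days, whereas in SL and SFGL at day 21 *Ctgf* exceeded it 2.95-fold and 3.18-fold. *Gpnmb*, a membrane glycoprotein of macrophages and other lysosome-rich cells, measured 75.7, 63.8, 26.1 and 15.1 FPKM at day 12 and 42.0, 31.8, 21.3 and 15.4 at day 21. It was 2.90-fold and 5.02-fold lower in SL and SFGL at day 12 and 2.72-fold lower in SFGL at day 21. In SL day 21 it was 1.97-fold lower, just short of the 2-fold rule.

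The fall of these genes went together with that of fibroblast and adipocyte markers. Of 10 fibroblast markers, 9 were lower in all 4 SL and SFGL libraries, and their sum was 1325 to 2712 FPKM there against 6348 to 8232 in uFIB and FGL. Of 10 adipocyte markers, 8 were lower in all 4 and none was higher. Their sum was 50.4 to 290 FPKM in SL and SFGL against 875 to 1208 in uFIB and FGL, with *Lep* at 0 in SFGL day 21. *Adipoq* was at 241 FPKM in uFIB day 12 and 348 in uFIB day 21, and at 10.6 to 45.4 in SL and SFGL. Summed fibroblast markers were 3.04-fold to 4.79-fold lower and summed adipocyte markers 4.16-fold to 23.7-fold lower, and *Apoe*, *Lpl*, *Fabp4* and *Nov* were 2.82-fold to 19.4-fold lower. The part of either cell type in the levels of the members was not tested.

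**Figure D4:**
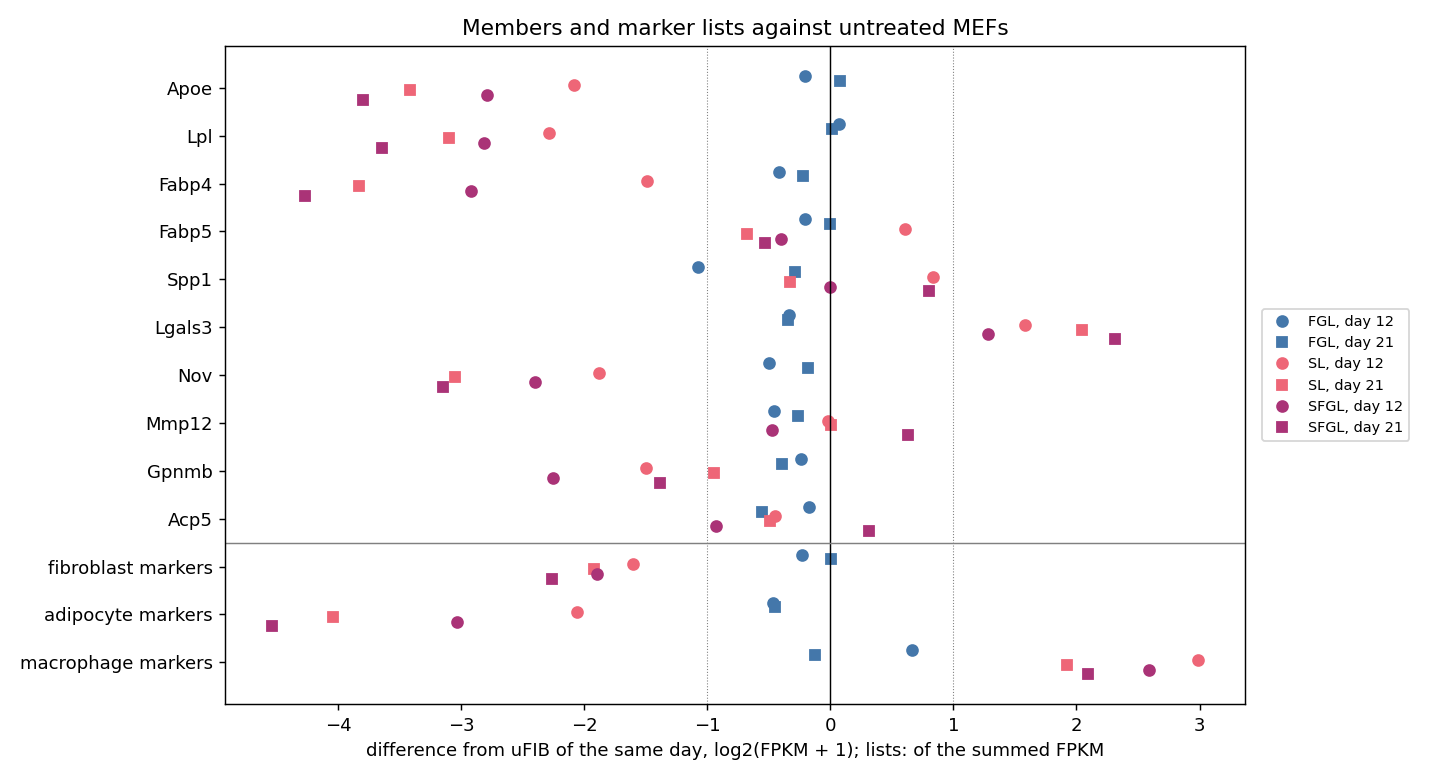
Difference of each member, and of the summed FPKM of 3 marker lists, from uFIB of the same day, on the log2(FPKM + 1) scale along the horizontal axis. Circles are day 12, squares day 21, colours the 3 treatments and dotted lines the 2-fold limits; *Apoe*, *Lpl*, *Fabp4* and *Nov* lie left of -1 in all 4 SL and SFGL libraries, as do the fibroblast and adipocyte lists.

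*Lgals3* went the other way, with 55.0 FPKM in uFIB, 43.4 in FGL, 167 in SL and 135 in SFGL on day 12, and 18.0, 14.0, 77.0 and 93.4 at day 21. Every SL and SFGL value was thus above every uFIB and FGL value. At day 12 SL was 3.04-fold and SFGL 2.45-fold higher than uFIB, and at day 21 they were 4.29-fold and 5.20-fold higher. The larger differences at day 21 went with a 3.06-fold lower level in uFIB at day 21 than at day 12. With uFIB day 12 as the reference for both days, *Lgals3* no longer passed 2-fold in all 4 libraries. Neutrophil and eosinophil markers, led by *S100a8* or *Prg2*, summed to 12714 to 27129 FPKM in SL and SFGL against 12.3 to 2914 in uFIB and FGL. Markers of other blood lineages were also higher there, with sums of 160 to 319 FPKM against 0.975 to 21.1 for mast cells, 138 to 410 against 0.330 to 87.1 for red cells and 86.2 to 174 against 1.37 to 13.8 for megakaryocytes. Endothelial markers summed to 15.0 to 29.5 FPKM against 1.29 to 2.86, with *Pecam1* the highest at 6.65 to 26.4 in SL and SFGL. *Pecam1* was the 1 of 4 tested endothelial markers that was higher in all 4 libraries. The part of any of these cell types in the *Lgals3* values was not tested.

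*Spp1* measured 176 FPKM in uFIB, 83.2 in FGL, 315 in SL and 176 in SFGL on day 12, and 276, 226, 220 and 482 at day 21. SL was 1.79-fold higher than uFIB at day 12 and 1.25-fold lower at day 21, and SFGL was level with uFIB at day 12 and 1.75-fold higher at day 21, so that no direction was shared. *Acp5* measured 9.11, 7.96, 6.38 and 4.32 FPKM at day 12 and 5.69, 3.57, 3.76 and 7.30 at day 21, without a common direction either. *Mmp12* measured 0.882, 0.373, 0.862 and 0.353 FPKM at day 12 and 0.235, 0.0273, 0.238 and 0.910 at day 21. It was thus below 1 FPKM in all 8 libraries and entered no count.

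The sum of the macrophage markers was higher in SL and SFGL than in uFIB. It was 52.8 to 115 FPKM there and 12.0 to 22.1 in uFIB and FGL. In SL and SFGL it was 3.997-fold to 8.46-fold above uFIB of the same day. Of the 8 markers tested, 4 were higher in all 4 SL and SFGL libraries (*Cd14*, *Cd68*, *Clec7a* and *Emr1*) and 0 were lower in all 4. *Mertk* was lower than uFIB in SFGL on both days. *Csf1r* was at 0.734 to 1.92 FPKM in SL and SFGL, *C1qa* was listed at 0 in all 4, and *C1qb* and *C1qc* reached at most 0.0824. The highest marker in those libraries was *Cd14* or *Cd68*, at 21.0 to 50.2 FPKM.

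The libraries labelled FGL resembled uFIB in these genes. At day 12, 1 of the 9 members tested was called (*Spp1*, 2.11-fold lower), beside 3.26% of the 11905 genes tested, and at day 21 none of the 9 was called, beside 0.855% of 11692 genes. SFGL differed from SL in 2 of the 9 at day 12, *Fabp4* (2.69-fold lower) and *Fabp5* (2.03-fold lower), beside 0.839% of the genes tested. At day 21 it differed in 1 of 9, *Spp1* (2.19-fold higher), beside 1.21%. The median difference of the members between SFGL and SL on log2(FPKM + 1) was -0.62 at day 12 and 0.02 at day 21, against -0.04 and -0.02 for all genes, so that the days did not share a direction. Within uFIB, 2 of the 9 differed between days, *Fabp5* (2.69-fold higher at day 21) and *Lgals3* (3.06-fold lower), beside 3.14% of the genes tested.

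Related genes in the MEFs were counted by the same rule, beside the 8.14% of tested genes that were lower in all 4 SL and SFGL libraries and the 8.9% that were higher. Of the lipid uptake, storage and release genes, 7 of 25 tested were lower in all 4 and 1, *Scarb1*, was higher. The fatty acid receptor *Cd36* was at 53.1 and 72.4 FPKM in uFIB and 1.74 to 12.6 in SL and SFGL, *Apoc1* at 27.3 and 52.8 against 3.17 to 7.76, and *Lrp1* at 159 and 257 against 43.8 to 82.8. *Scarb1*, a receptor for high-density lipoprotein, was at 19.6 and 18.8 FPKM in uFIB and 39.5 to 54.5 in SL and SFGL. *Pparg* was at 32.3 and 48.1 FPKM in uFIB and 3.97 to 8.71 in SL and SFGL, and *Nr1h3* was lower as well, the 2 called among 9 nuclear receptors and partners.

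Of the metalloproteinases and inhibitors, 7 of 20 tested were lower in all 4 libraries and 2 were higher. *Mmp17* fell from 20.0 and 37.7 FPKM in uFIB to 1.04 to 2.85, *Mmp11* from 133 and 43.7 to at most 29.3, and *Mmp15* from 3.96 and 7.26 to 0.153 to 0.816. The higher 2 were the neutrophil collagenase *Mmp8*, at 1.99 and 2.65 FPKM in uFIB and 71.3 to 153 in SL and SFGL, and *Mmp9*, at 0.186 and 0.650 against 27.4 to 62.5. *Mmp12* stayed below 1 FPKM in every MEF library and was not among the genes tested. Of the CCN genes, 3 of 5 tested were lower, *Wisp2* and *Wisp1* together with *Nov*. Of the galectins, 3 of 7 tested were lower (*Lgals12*, *Lgals3bp* and *Lgalsl*) and 1, *Lgals3*, was higher. No other osteopontin family gene reached 1 FPKM in the MEFs. Of the osteoclast genes, 2 of 11 tested were higher (*Mmp9* and *Itgb3*) and 1 was lower. The lower 1 was *Ctsk*, cathepsin K, from 69.1 and 70.2 FPKM to 6.51 to 17.2.

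For 8 of the 9 members in both tables, the gene with the most similar profile was found among 5638 genes that reached 10 FPKM in both tables, by the root mean square difference of log2(FPKM + 1), centred within each table, over the 13 samples. For *Fabp4* this gene was *Pparg*, with a difference of 0.37, for *Acp5* it was *Il10rb* (0.38), for *Apoe* *Rin2* (0.48) and for *Fabp5* *Ctsl* (0.61). For *Lpl* it was *Ifi202b* (0.70), for *Lgals3* *Cfp* (0.87), for *Spp1* *Anxa1* (1.12) and for *Nov* *Fcgrt* (1.23). Smaller values mean closer profiles, and *Nov* and *Spp1* had the largest of these 8 values. No match is given for *Mmp12*, which was under 1 FPKM in every sample but MAC. All points share the same libraries, and the values describe likeness of profile alone.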

How the data were processed

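RNA-seq of 18 samples was analysed, 10 of the 5 stages and 8 of MEFs. The authors deposited FPKM values, and no other unit was used. Per the methods of the study, SOLiD reads (of ribosome-depleted RNA for the stages, per the labels) were aligned with SHRiMP to mm10 (GRCm38), uniquely aligned reads were kept, duplicates were removed with Picard and FPKM values were calculated with Cufflinks. The submitters' processing notes also name TopHat, Bowtie and HOMER, and versions are not given in the sources used here. Both filters can change levels: genes with near-identical copies lose reads to the first, and the highest values are limited by the second. FPKM of the stages combine both replicates for each of 22089 transcription start sites (TSS), and were summed per gene. 1 further column of values, for HE, matched no sample here and was not used.

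Groups came from the labels. With 1 value per stage and 1 library per MEF condition and day, no test or p-value was computed, and where the labels number replicates they were already combined. FPKM hold no read numbers, so that no counting interval is given. The low values (under 0.3 FPKM) of the MEF libraries gave depths of 0.586 to 1.57 relative to uFIB day 12, from 15.1% to 19.3% of the low genes that shared 1 step. The other low values did not fall on that step, and no count test was run.

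The rule for calls was a 2-fold difference on log2(FPKM + 1) and 1 FPKM or more in any sample compared. Its script was tested on simulated data. The members and the lists of related genes and markers were chosen with earlier results of these data known. Named were all members, the 3 largest rises and falls of each list of related genes past 2-fold, genes of a member's family, the sum, highest gene and genes at 0 of marker lists, and the closest profile of each member except *Mmp12*, left out after its values were seen because they were under 1 FPKM outside MAC; other genes named were chosen after their values were seen. Alternatives were pseudocounts of 0.1 and 0.001, limits of 10 FPKM and 4-fold, equal upper quartiles, other uFIB references and leaving out the libraries labelled FGL. Positions are those of the authors' tables, counted from 1. Promoter windows are those of RefSeq. Scripts ran in Python 3.11.15 with pandas 2.3.3, NumPy 2.4.6 and matplotlib 3.10.9.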

Additional observations from a re-analysis of the deposited data

How the results depend on the processing

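Of 19 results that count members or list genes, 7 stayed within 1.5 times under every alternative, and 93 of 112 alternative values did. For single members, 338 of 378 alternative values stayed within 1.5 times, and no difference of at least 2-fold turned its direction. With a 4-fold rule, 1 member was called from ESC to MES, 0 members were higher and 2 lower (*Apoe* and *Lpl*) in all 4 SL and SFGL libraries, 2 instead of 24 list genes were lower there, and 0 were called for FGL day 12, for SFGL against SL on either day and for uFIB between days. A limit of 10 FPKM left 1 call from ESC to MES. Pseudocounts of 0.1 and 0.001 gave 2 calls from MES to HB, *Lgals3* and *Spp1*. With equal upper quartiles, SFGL differed from SL at day 12 in 1 member, *Fabp4*. Taking all 6 treated libraries together, 0 members were higher and 0 lower, and without the libraries labelled FGL 1 and 4 were. With the mean of both uFIB libraries, 2 members were called for FGL day 12 and 1 for FGL day 21. As alternatives chosen after seeing the data, uFIB day 21 as the reference for both days gave 4 calls for FGL day 12, and uFIB day 12 gave 4 calls for FGL day 21 and 0 members higher in all 4 SL and SFGL libraries.

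No paired analysis was possible because the stage values combine the numbered replicates and the MEFs have 1 library per condition and day. For the same reason no replicate was left out. Without read numbers, differences of members under 1 FPKM, such as those of *Mmp12* in the MEFs, cannot be read, since the counting error is unknown.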
